A study of Mus musculus with 12 samples.

Results

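This account covers the genes that changed in the same direction, and by a similar amount, when mouse CD4+ T cells were stimulated in 3 ways. The 12 libraries of the series formed 4 groups of 3, all of primary CD4+ T cells of C57BL/6 mice. CD3 cells were activated with plate-bound anti-CD3, an antibody to the T cell receptor complex, for 72 h. CD3_CD28 cells had plate-bound anti-CD3 with soluble anti-CD28 for the same 72 h, CD28 being a costimulatory receptor. CD3_CD28_ICOS cells had, again for 72 h, antibodies to CD3, CD28 and ICOS, a further member of the CD28 family, and their label calls these soluble. That group therefore also differed from the others in the format of anti-CD3. Unstimulated cells were freshly isolated and not activated, so stimulation and 72 h of culture cannot be told apart. The design text calls the cells transduced, but no sample label names a transduction. Whether replicates are separate mice or cultures is not stated, and p-values thus reflect a spread between libraries that could be purely technical.

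A gene was examined if 3 or more of the 12 libraries held at least 10 CPM of it (counts per 1e6 assigned reads), which left 9826 of the 17203 genes listed. The 9 stimulated libraries were set against the 3 unstimulated ones, with equal weight for each stimulated group. Fold changes are differences of log2(CPM + 1), a scale on which changes of weakly expressed genes come out too small, and ± marks the standard error from limma. A gene was called at a Benjamini-Hochberg adjusted p under 0.05 over all 9826 genes. The spread of a gene is the largest minus the smallest of its 3 log2 fold changes. It depends on the stimulated libraries alone. A change was taken as shared and of similar size when all 3 groups were called in 1 direction, each by at least 1 log2 unit, with a spread of at most 0.5. These thresholds chose the genes, so their fold changes and spreads are given as a description.

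A naive CD4+ T cell is small and quiescent. It recirculates through lymph nodes by means of homing receptors, and transcription factors such as FOXO1, KLF2, TCF1 and LEF1 hold that state. Signals through the antigen receptor, aided by receptors such as CD28 and ICOS, start growth, glycolysis, lipid synthesis and cell division, and bring up effector transcription factors and surface receptors.

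Depth was estimated at 11.4 to 37.5 reads per library in units of 1e6, where 1 read is worth 0.0267 to 0.0879 CPM. Libraries of 1 group correlated across genes at 0.968 to 0.993 on the log2 scale. The ribosomal RNA gene CT010467.1 took 11.8% of CD3_CD28 replicate 1 and 1.26 to 3.20% of the other libraries. The median log2 fold change over all tested genes was 0.18 in CD3, -0.04 in CD3_CD28 and 0.08 in CD3_CD28_ICOS. T cell markers (10 genes, among them Cd3e, Cd4 and Lck) summed to 3986 to 4663 CPM in CD3 libraries, 3533 to 4043 CPM in CD3_CD28, 5733 to 6193 CPM in CD3_CD28_ICOS and 6839 to 7740 CPM in unstimulated libraries.

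With a separate mean fitted for each group, most of the genes tested were called different between stimulated and unstimulated libraries. In the 9 stimulated against the 3 unstimulated libraries, limma called 3993 genes higher (40.6% of those tested) and 3169 lower (32.3%), and left 2664 uncalled. With quantile normalization the counts were 3221 higher and 4058 lower, and the median of all genes shifted by -0.144, so the balance of rises and falls depends on the scaling. On the deposited scale, with 1 mean for all 9 stimulated libraries, 2689 genes were called higher and 1796 lower. The share of genes called thus also depends on the model. In CD3 alone 4280 genes were called higher and 2582 lower, in CD3_CD28 3545 and 3846, and in CD3_CD28_ICOS 3500 and 2332. The 3 comparisons use the same 3 unstimulated libraries, so a gene called in all of them is a description and not repeated evidence. Genes called higher in all 3 groups numbered 2325 (23.7%), and genes called lower in all 3 numbered 1445 (14.7%). Another 774 genes were called higher in 1 stimulated group and lower in another.

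Direction was shared far more often than size. Of the genes called in all 3 groups, 898 rose and 283 fell by at least 1 log2 unit in each. A spread of at most 0.5 left 142 rises (1.45% of tested genes) and 56 falls (0.570%). With quantile normalization these were 93 rises and 93 falls, so the excess of rises depends on the scaling. A further 31 falls (0.315%) also met these limits, but their means were under 1 CPM in every stimulated group, and they are described apart. The stimulated groups differed from each other at 7980 genes in limma's F test (81.2% of those tested), and the median spread of all tested genes was 0.64. Large rises were seldom of similar size. Among the 898 rises, 108 of the 305 with a mean log2 fold change of 1 to 2 had a spread of at most 0.5 (35.4%), as did 29 of 338 between 2 and 3 (8.58%), 5 of 156 between 3 and 4 (3.21%) and 0 of 99 above 4. Among the 247 falls that were not near 0 CPM, the shares were 44 of 127 (34.6%), 8 of 81 (9.88%), 4 of 29 (13.8%) and 0 of 10, the last band being thin. Each of the 3 changes had to reach 1, so a mean near 1 leaves little room for spread. The drop in these shares is therefore partly set by the choice of genes. The median spread of the rises was 0.66, 1.24, 1.30 and 1.18 in the same bands, and thus grew little above a mean of 2.

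**Figure D1:**
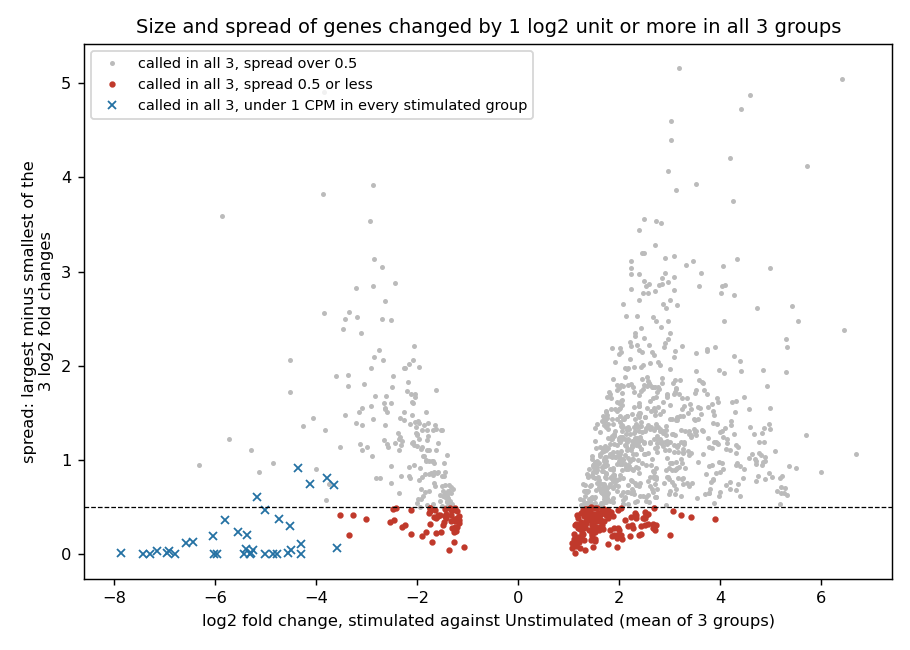
Size of change (x axis, mean log2 fold change of the 3 stimulated groups against Unstimulated) and spread of the 3 log2 fold changes (y axis) for genes called in all 3 groups by at least 1 log2 unit. Red points at or below the dashed line at 0.5 are the 142 rises and 56 falls of similar size. Blue crosses are genes under 1 CPM in every stimulated group. The red points thin out as the change grows, but at small changes the limit of 1 on each group also caps the spread.

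The genes were chosen for small differences between the stimulated groups, so the intervals of those differences describe the choice and do not test it. In 135 of the 142 rises and 51 of the 56 falls, limma's 95% intervals of all 3 pairwise differences between stimulated groups lay within 1 log2 unit. They lay within 1.5-fold in 51 rises and 10 falls. The F test still called a difference among the stimulated groups in 48 of the 142 rises and 19 of the 56 falls. For the other 94 and 37 it did not, which does not show that the groups were alike. In 141 of the 142 rises and all 56 falls the 9 stimulated and the 3 unstimulated libraries did not overlap (42.0% of all tested genes), which follows largely from the size asked of each group. The exception was the predicted gene Gm49759, with 21.6, 52.9 and 50.9 CPM in CD3 and 22.3, 15.3 and 10.7 CPM in unstimulated libraries. Both sets lay at ordinary levels, with a median highest group mean of 47.6 CPM for the rises and 46.6 CPM for the falls, beside 56.6 CPM over all tested genes. Processed and other pseudogenes made up 12 of the 140 rises with a known biotype (8.57%) and 2 of 55 such falls (3.64%), beside 5.86% of tested genes.

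The shared rises are described by the roles of the genes, and 14 of the 142 were in any of the lists examined. Nr4a3, a nuclear receptor induced by antigen receptor signals (mm10 chr4:48045153-48086447, plus strand), had 372, 323 and 270 CPM in CD3, 277, 608 and 441 CPM in CD3_CD28, and 379, 286 and 324 CPM in CD3_CD28_ICOS, against 32.5, 28.5 and 35.5 CPM in unstimulated libraries. The 3 stimulated groups overlapped with each other, and none came near the unstimulated libraries. Its log2 fold change was 3.42 ± 0.19 (limma, adjusted p = 7.40e-09), with a spread of 0.40 and pairwise intervals within 0.90. Hif1a, the oxygen-regulated factor that drives glycolytic genes (chr12:73901375-73947530, plus strand), had 1094, 902 and 840 CPM in CD3, 841, 630 and 705 CPM in CD3_CD28, and 698, 736 and 756 CPM in CD3_CD28_ICOS, against 145, 144 and 136 CPM in unstimulated libraries. The CD3 mean was highest, although CD3 and CD3_CD28 libraries overlapped, and the F test called a difference among the stimulated groups (limma, adjusted p = 0.0094) that was small beside the rise of 2.47 ± 0.09 (limma, adjusted p = 4.90e-11).

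Gfi1, a zinc finger transcriptional repressor of the blood lineage, had 79.1, 67.9 and 70.2 CPM in CD3, 59.1, 61.8 and 63.1 CPM in CD3_CD28, and 47.7, 64.5 and 62.1 CPM in CD3_CD28_ICOS, against 10.2, 8.74 and 8.43 CPM in unstimulated libraries. Every stimulated library was above every unstimulated one, and the log2 fold change was 2.67 ± 0.10 (limma, adjusted p = 4.61e-11). Sp140, a nuclear body protein of immune cells, rose by 2.51 ± 0.08 (limma, adjusted p = 2.39e-11) and was at 127 to 194 CPM in the 9 stimulated libraries, against 24.6 to 28.8 CPM in unstimulated ones. E2f3, which activates genes for entry into S phase, rose by 2.11 ± 0.12 (limma, adjusted p = 2.61e-09) and was the only cell cycle regulator of similar size among the 28 tested. Some chromatin enzymes, picked after their values were seen, also met the limits. Log2 fold changes were 1.85 ± 0.12 for the histone demethylase gene Kdm2b, 1.31 ± 0.14 for Kdm5b, another histone demethylase gene, and 1.31 ± 0.08 for the DNA methyltransferase gene Dnmt3a. Of the 23 tested effector transcription factors, 18 were called higher and 3 lower, beside 40.6% and 32.3% of all tested genes. In all 3 groups 13 were higher, beside 23.7%, and Nr4a3 and Hif1a alone met the limits of similar size. Irf4, a factor whose level follows receptor signal strength, shows the contrast. It had 381, 367 and 335 CPM in CD3, 719, 533 and 662 CPM in CD3_CD28, and 165, 158 and 136 CPM in CD3_CD28_ICOS, against 17.0, 11.2 and 16.4 CPM in unstimulated libraries, a spread of 2.05.

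**Figure D2:**
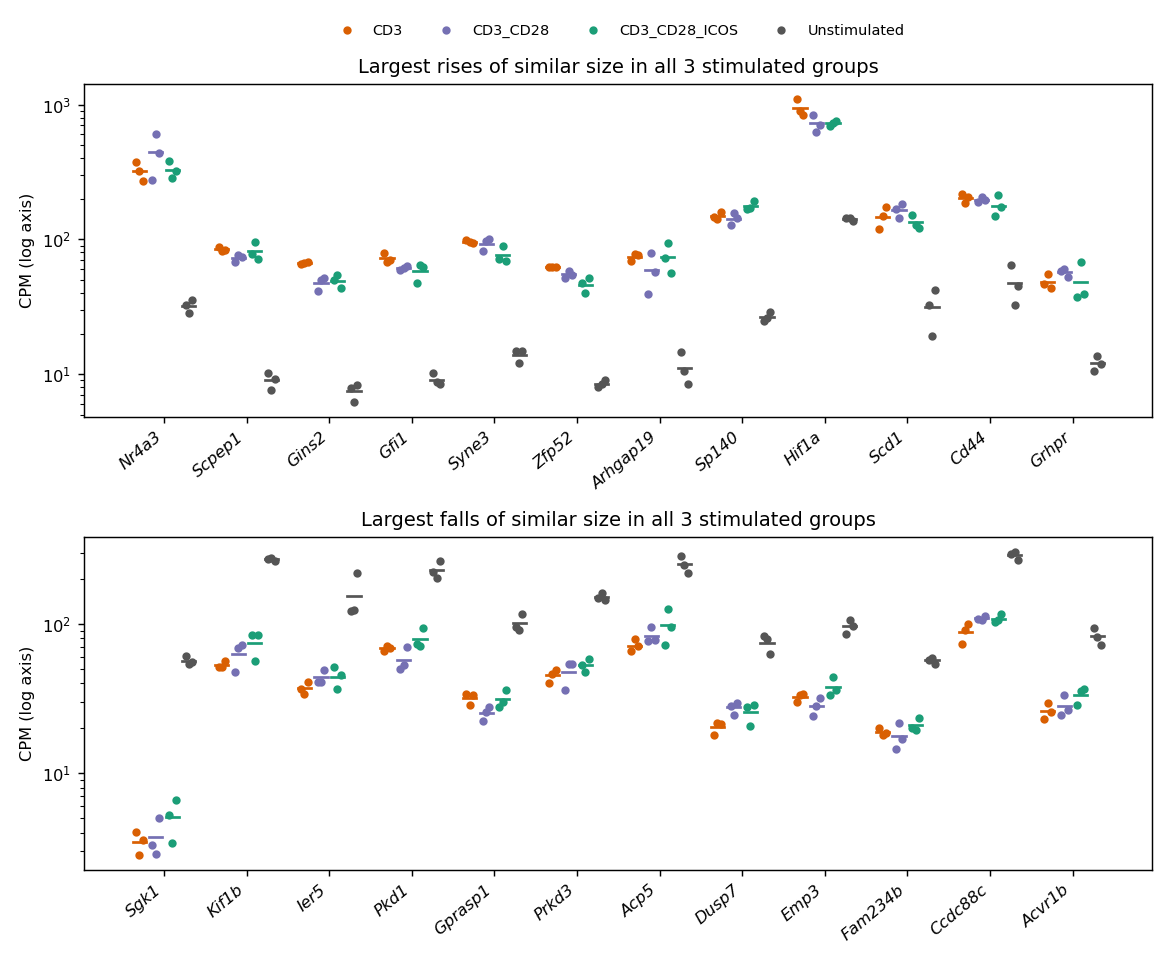
CPM (log axis) of the 12 largest rises and 12 largest falls of similar size, at 56.6 CPM or more in the highest group, in each of the 3 libraries of CD3, CD3_CD28, CD3_CD28_ICOS and Unstimulated, left to right for each gene. Points are libraries and bars are group means. The genes were chosen for close stimulated groups that do not overlap the unstimulated libraries, and the plot shows the size of each change, as in Nr4a3 (270 to 608 CPM stimulated, 28.5 to 35.5 CPM unstimulated) and Sgk1 (2.85 to 6.63 CPM stimulated, 53.4 to 61.0 CPM unstimulated).

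Of the surface receptors, Cd44, the hyaluronan receptor that marks antigen-experienced T cells (chr2:102811141-102901665, minus strand), had 218, 187 and 205 CPM in CD3, 188, 207 and 197 CPM in CD3_CD28, and 148, 213 and 173 CPM in CD3_CD28_ICOS, against 65.1, 32.7 and 45.1 CPM in unstimulated libraries. The stimulated groups overlapped, and the log2 fold change was 2.04 ± 0.16 (limma, adjusted p = 1.26e-07) with a spread of 0.20. Tigit, an inhibitory receptor that competes with the costimulatory receptor CD226 (chr16:43648867-43664146, minus strand), had 47.4, 32.2 and 28.4 CPM in CD3, 40.3, 30.5 and 29.4 CPM in CD3_CD28, and 24.0, 28.0 and 26.1 CPM in CD3_CD28_ICOS, against 4.93, 1.06 and 2.30 CPM in unstimulated libraries. Its rise was 3.23 ± 0.25 (limma, adjusted p = 1.71e-07), but its pairwise intervals reached 1.09 log2 units. Of the 20 tested activation receptors, 17 were called higher and 2 lower, beside 40.6% and 32.3% of all tested genes. In all 3 groups 15 were higher, beside 23.7%, and the median spread of the receptors was 1.44. Il2ra, the alpha chain of the interleukin-2 receptor, rose by 3.94 in CD3, 5.31 in CD3_CD28 and 3.69 in CD3_CD28_ICOS on the log2 scale.

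Several signalling genes among the 142 were picked for their known roles after their values were seen. Jak2, a kinase of cytokine receptors, was at 413 to 600 CPM in the stimulated libraries, against 176 to 194 CPM in unstimulated ones, and rose by 1.40 ± 0.08 (limma, adjusted p = 1.92e-09). Jak3, the kinase of the common gamma chain of interleukin receptors, rose by 1.63 ± 0.12 (limma, adjusted p = 3.15e-08). Traf1, an adaptor of tumour necrosis factor receptors, rose by 1.39 ± 0.08, and Tnip3, an inhibitor of NF-kB signalling, was at 11.6 to 20.9 CPM in stimulated libraries, against 0 to 0.255 CPM in unstimulated ones. The calcium pathway had Ppp3cc, a catalytic subunit of the phosphatase calcineurin, which rose by 1.48 ± 0.07 (limma, adjusted p = 4.70e-10), and Camk2d, a calcium-dependent kinase, which rose by 1.16 ± 0.07 (limma, adjusted p = 6.48e-09). Ppp3cc was called different among the stimulated groups (limma F test, adjusted p = 0.0056), and Camk2d was not (adjusted p = 0.40), with pairwise intervals within 0.32. Tpm4, an actin-binding tropomyosin, was among the most even, with 276, 250 and 273 CPM in CD3, 243, 261 and 263 CPM in CD3_CD28, and 231, 260 and 263 CPM in CD3_CD28_ICOS, against 120, 124 and 104 CPM in unstimulated libraries. Its spread was 0.08 and its pairwise intervals stayed within 0.27.

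Of the 12 largest named rises, Scpep1, a serine carboxypeptidase gene (chr11:88924020-88955465, minus strand), had a spread of 0.20. It had 87.4, 81.7 and 83.9 CPM in CD3, 68.5, 77.2 and 73.8 CPM in CD3_CD28, and 78.0, 95.7 and 72.2 CPM in CD3_CD28_ICOS, against 10.3, 7.61 and 9.21 CPM in unstimulated libraries, and rose by 3.01 ± 0.10 (limma, adjusted p = 2.39e-11). Syne3, which links the nuclear envelope to the cytoskeleton, rose by 2.58 ± 0.10, and Arhgap19, a GTPase-activating protein gene, by 2.52 ± 0.20. The zinc finger gene Zfp52 rose by 2.53 ± 0.08, and Grhpr, a glyoxylate reductase, by 1.98 ± 0.15. Serpinb9, the inhibitor of granzyme B, rose by 1.52 ± 0.11 with a spread of 0.14, and Apaf1, the scaffold of the apoptosome, by 1.17 ± 0.07 with a spread of 0.41. Gzmb itself, in contrast, rose by 6.78 in CD3, 8.76 in CD3_CD28 and 3.71 in CD3_CD28_ICOS on the log2 scale.

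Of the lists examined, cholesterol synthesis had the most rises of similar size, 4 of 22 tested genes, beside 1.45% of all tested genes. Nearly all genes of that list rose, and of all 898 rises of at least 1 log2 unit 142 were of similar size. Over all tested genes, 40.6% were called higher and 23.7% were higher in all 3 groups. Of 22 tested genes of cholesterol synthesis and its control, 21 were called higher and 0 lower, and 20 were higher in all 3 groups. The median log2 fold change was 1.95 in CD3, 2.07 in CD3_CD28 and 1.73 in CD3_CD28_ICOS, with a median spread of 0.59, beside 0.64 over all tested genes. Single cholesterol genes were no more even than others. A spread of at most 0.5 held for 7 of the 22, beside 36.7% of all tested genes. The F test called a difference among the stimulated groups in 19 of them, beside 81.2%. Fdps, which makes farnesyl diphosphate, had 47.9, 54.0 and 44.5 CPM in CD3, 47.1, 34.9 and 42.6 CPM in CD3_CD28, and 27.8, 58.8 and 26.8 CPM in CD3_CD28_ICOS, against 6.28, 7.01 and 6.07 CPM in unstimulated libraries. Replicate 2 of CD3_CD28_ICOS was the highest of the 9 and the other libraries of that group the lowest, and all 9 were above the unstimulated ones. The log2 fold change of Fdps was 2.51 ± 0.19 (limma, adjusted p = 9.46e-08). Mvd, the decarboxylase before isopentenyl diphosphate, rose by 1.83 ± 0.12, Nsdhl, a sterol dehydrogenase, by 1.78 ± 0.14, and Insig1, the sterol-regulated retention protein of SREBP, by 1.59 ± 0.09. In CD3_CD28_ICOS replicate 2, Nsdhl stood at 104 CPM, against 60.2 and 60.3 CPM in the other libraries of that group. Stard4, a sterol carrier, had a spread of 0.87. Of 13 tested genes of fatty acid synthesis, 12 were called higher and 1 lower, and Scd1, the stearoyl-CoA desaturase, was of similar size, at 119 to 182 CPM in stimulated libraries against 19.2 to 42.4 CPM in unstimulated ones (2.27 ± 0.19; limma, adjusted p = 3.18e-07).

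The promoters of the cholesterol genes were searched on both strands for short motifs, in windows of 250 bases before and 50 after the start of the gene. The letters CCAAT, bound by the factor NF-Y, were present for 14 of the 15 cholesterol genes with a promoter sequence (93.3%). They were present for 43.5% of the 7402 tested genes with such a sequence. A gene counted if any of its promoters held the letters. The share was 40.4% among the 109 rises and 53.5% among the 43 falls of similar size that had a promoter sequence. A core of the sterol element, TCACNCCAC, was present in 1 of the 15 and in 1.41% of all. A match of letters is a description and does not show that a factor binds. Printed here are promoters of Nsdhl (chrX:72918271-72918570, plus strand), Mvd (chr8:122443373-122443672, minus strand) and Insig1 (chr5:28071162-28071461, plus strand), from RefSeq on build GRCm38.p6. They were chosen because these genes rose by a similar amount and the promoters hold CCAAT, so the matches are part of the choice. Fdps, the other cholesterol gene of similar size, gave no promoter holding the motif. CCAAT or its complement ATTGG is in capitals.
Nsdhl: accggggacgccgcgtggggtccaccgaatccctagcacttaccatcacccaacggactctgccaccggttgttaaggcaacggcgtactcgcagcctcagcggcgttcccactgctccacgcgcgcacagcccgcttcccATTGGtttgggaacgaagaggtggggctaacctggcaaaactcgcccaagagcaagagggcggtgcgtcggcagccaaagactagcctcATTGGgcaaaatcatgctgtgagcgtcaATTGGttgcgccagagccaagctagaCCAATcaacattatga
Mvd: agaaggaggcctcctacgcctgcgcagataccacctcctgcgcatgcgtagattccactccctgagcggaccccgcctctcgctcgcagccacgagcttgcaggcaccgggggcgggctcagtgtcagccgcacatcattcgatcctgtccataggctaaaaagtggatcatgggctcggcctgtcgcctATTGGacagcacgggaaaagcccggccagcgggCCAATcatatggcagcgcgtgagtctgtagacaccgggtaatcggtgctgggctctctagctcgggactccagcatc
Insig1: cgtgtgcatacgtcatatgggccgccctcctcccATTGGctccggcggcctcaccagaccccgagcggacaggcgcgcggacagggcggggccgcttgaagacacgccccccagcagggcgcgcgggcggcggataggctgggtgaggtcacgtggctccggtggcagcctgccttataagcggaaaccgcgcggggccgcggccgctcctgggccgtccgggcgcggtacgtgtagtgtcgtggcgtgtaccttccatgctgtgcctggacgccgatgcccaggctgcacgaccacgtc
The first capitals of Mvd begin 60 bases before the start and those of Insig1 216 bases before it. Nsdhl has 4 such matches, from 109 bases before the start to 34 after it.

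Division genes rose in every group, but not to the same level. Over all tested genes, 40.6% were called higher and 23.7% were higher in all 3 groups. Of 44 tested mitosis genes, 43 were called higher and 1 lower, and 41 were higher in all 3 groups. Their median log2 fold change was 4.73 in CD3, 3.76 in CD3_CD28 and 4.21 in CD3_CD28_ICOS. The median spread was 0.94, beside 0.64 over all tested genes. Of the 44, 0 were of similar size, beside 1.45% of all tested genes and 0 of the 99 rises above 4. Mki67, a marker of cycling cells, had 1637, 1629 and 1677 CPM in CD3, 609, 1058 and 908 CPM in CD3_CD28, and 1283, 1415 and 955 CPM in CD3_CD28_ICOS, against 47.5, 25.9 and 52.6 CPM in unstimulated libraries. The rise of 4.85 ± 0.21 (limma, adjusted p = 2.49e-09) thus had a spread of 0.98, with CD3 highest. Of 41 tested DNA replication genes, 39 were called higher and 1 lower, and 31 were higher in all 3 groups, by a median of 2.24 in CD3, 1.34 in CD3_CD28 and 1.15 in CD3_CD28_ICOS. Gins2, a subunit of the replicative helicase, was the single replication gene of similar size, at 65.7, 67.4 and 67.9 CPM in CD3, 41.2, 49.9 and 51.6 CPM in CD3_CD28, and 50.2, 54.3 and 43.5 CPM in CD3_CD28_ICOS, against 7.95, 6.27 and 8.28 CPM in unstimulated libraries (2.70 ± 0.10; limma, adjusted p = 5.21e-11). CD3 lay above the others (limma F test, adjusted p = 0.0040). Gins1, another subunit of the same complex, had a spread of 1.81. Some division genes outside these lists were of similar size and were picked after their values were seen. Hjurp, the chaperone of the centromeric histone CENP-A, rose by 1.42 ± 0.14, Ckap5, a microtubule polymerase, by 1.74 ± 0.12, and Fzr1, an activator of the anaphase-promoting complex, by 1.44 ± 0.09.

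The letters TTTGAA are the core of the cell cycle homology element of late cell cycle genes. They were present for 29 of 38 mitosis genes with a promoter sequence (76.3%), beside 14.4% of all tested genes with one. The share was 19.3% of the 109 rises and 18.6% of the 43 falls of similar size that had a promoter sequence. CCAAT was present for 73.7% of such mitosis genes. TTCCCGC, a form of the E2F site, was present for 42.4% of DNA replication genes with a promoter sequence and for 10.3% of all. No mitosis gene met the limits of similar size, so the 3 printed promoters are those of the members with the smallest spreads that hold the motif, chosen after the values were seen. They are Ect2 (spread 0.60, chr3:27153829-27154128, minus strand), which acts in cell cleavage, Aurka (spread 0.64, chr2:172370521-172370820, minus strand), a spindle kinase, and Prc1 (spread 0.66, chr7:80294201-80294500, plus strand), which bundles microtubules of the central spindle. Ect2 and Prc1 each have 2 promoters, and the first that holds the motif is printed. TTTGAA is in capitals.
Ect2: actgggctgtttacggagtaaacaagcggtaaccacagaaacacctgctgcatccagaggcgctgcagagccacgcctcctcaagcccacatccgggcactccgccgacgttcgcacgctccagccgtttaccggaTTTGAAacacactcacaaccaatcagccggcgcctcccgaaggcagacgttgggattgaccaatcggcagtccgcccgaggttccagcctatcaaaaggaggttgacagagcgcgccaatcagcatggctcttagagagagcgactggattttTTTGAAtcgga
Aurka: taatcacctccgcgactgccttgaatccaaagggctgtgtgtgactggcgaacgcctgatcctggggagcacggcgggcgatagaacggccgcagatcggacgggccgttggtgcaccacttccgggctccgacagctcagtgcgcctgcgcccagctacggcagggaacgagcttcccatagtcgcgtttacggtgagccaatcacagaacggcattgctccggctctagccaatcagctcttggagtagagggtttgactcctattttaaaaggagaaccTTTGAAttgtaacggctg
Prc1: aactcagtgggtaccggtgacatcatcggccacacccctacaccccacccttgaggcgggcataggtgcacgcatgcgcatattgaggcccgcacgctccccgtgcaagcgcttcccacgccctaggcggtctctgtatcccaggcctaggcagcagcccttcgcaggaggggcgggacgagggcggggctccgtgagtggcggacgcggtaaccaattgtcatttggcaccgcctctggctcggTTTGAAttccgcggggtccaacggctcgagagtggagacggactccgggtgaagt
In Prc1 the motif begins 5 bases before the start, and in Aurka 32 bases after it. Aurka had 66.7, 73.2 and 72.1 CPM in CD3, 40.2, 59.6 and 55.8 CPM in CD3_CD28, and 45.2, 55.1 and 36.6 CPM in CD3_CD28_ICOS, against 3.86, 2.15 and 4.08 CPM in unstimulated libraries.

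Other metabolic lists differed in how far they were shared. Over all tested genes, 40.6% were called higher and 32.3% lower, and 23.7% were higher in all 3 groups. All 18 tested glycolysis genes were called higher in every stimulated group, by a median of 2.43 in CD3, 3.40 in CD3_CD28 and 2.00 in CD3_CD28_ICOS. A spread of at most 0.5 held for 0 of the 18, beside 36.7% of all tested genes. Thus 0 were of similar size, beside 1.45%. Hk2, which commits glucose to glycolysis, had 115, 188 and 137 CPM in CD3, 454, 455 and 464 CPM in CD3_CD28, and 43.8, 170 and 51.9 CPM in CD3_CD28_ICOS, against 4.80, 2.11 and 2.39 CPM in unstimulated libraries. CD3_CD28 was highest, and replicate 2 of CD3_CD28_ICOS lay with the CD3 libraries. Of 23 tested genes of amino acid supply and one-carbon metabolism, 20 were called higher and 1 lower, but 11 were higher in all 3 groups, with a median spread of 1.41. Of 26 genes of nucleotide synthesis, 15 were called higher and 4 lower, and 11 were higher and 1 lower in all 3 groups. Of 11 genes of polyamine synthesis, 5 were called higher and 3 lower, close to the shares over all tested genes. In all 3 groups 4 were higher, and the median of the list was 0.12. Asns, the asparagine synthetase, rose by 4.30 in CD3, 5.92 in CD3_CD28 and 2.79 in CD3_CD28_ICOS, whereas Got2, the mitochondrial aspartate aminotransferase, rose by 1.45 ± 0.08 with a spread of 0.50. Reads of Got2 may be shared with its pseudogene Got2-ps1, which rose by 1.46 ± 0.07. Tkt, a pentose phosphate enzyme outside the lists, rose by 1.41 ± 0.08, and Slc25a4, the ADP/ATP carrier of mitochondria, by 1.66 ± 0.07, both picked after their values were seen.

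Of 24 tested respiratory chain genes, 17 were called higher and 1 lower, beside 40.6% and 32.3% of all tested genes. A spread of at most 0.5 held for 16 of them, beside 36.7% of all tested genes. The median log2 fold change of the 24 was 0.37. In all 3 groups 9 of them were higher and 0 lower, beside 23.7% and 14.7% of all tested genes. Of 18 tested genes of the tricarboxylic acid cycle, 11 were higher and 2 lower, with 11 at a spread of at most 0.5 and a median of 0.25. In all 3 groups 5 of the 18 were higher, close to the share over all tested genes, and 1 was lower. With quantile normalization 9 of the 18 were called higher and 3 lower. Of 25 ribosomal protein genes, 10 were higher, close to the share over all tested genes, and 6 lower. A spread of at most 0.5 held for 19 of the 25, and their median was -0.01. In all 3 groups 4 of the 25 were higher and 2 lower. The median spreads of the respiratory chain, tricarboxylic acid cycle and ribosomal protein lists were 0.40, 0.40 and 0.33, beside 0.64 over all tested genes. Other lists of this kind were less even. Of 32 genes of mitochondrial ribosomes and import, 11 had a spread of at most 0.5, and 16 were called higher and 2 lower, but 10 higher and 9 lower with quantile normalization, so no direction is given for them. Aminoacyl-tRNA synthetases were called higher in 19 of 20 and lower in 0, but in all 3 groups for 5, with a median spread of 1.15. Ribosome biogenesis genes were called 9 higher and 10 lower of 39, and 6 higher and 13 lower with quantile normalization, with a median spread of 1.00.

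**Figure D3:**
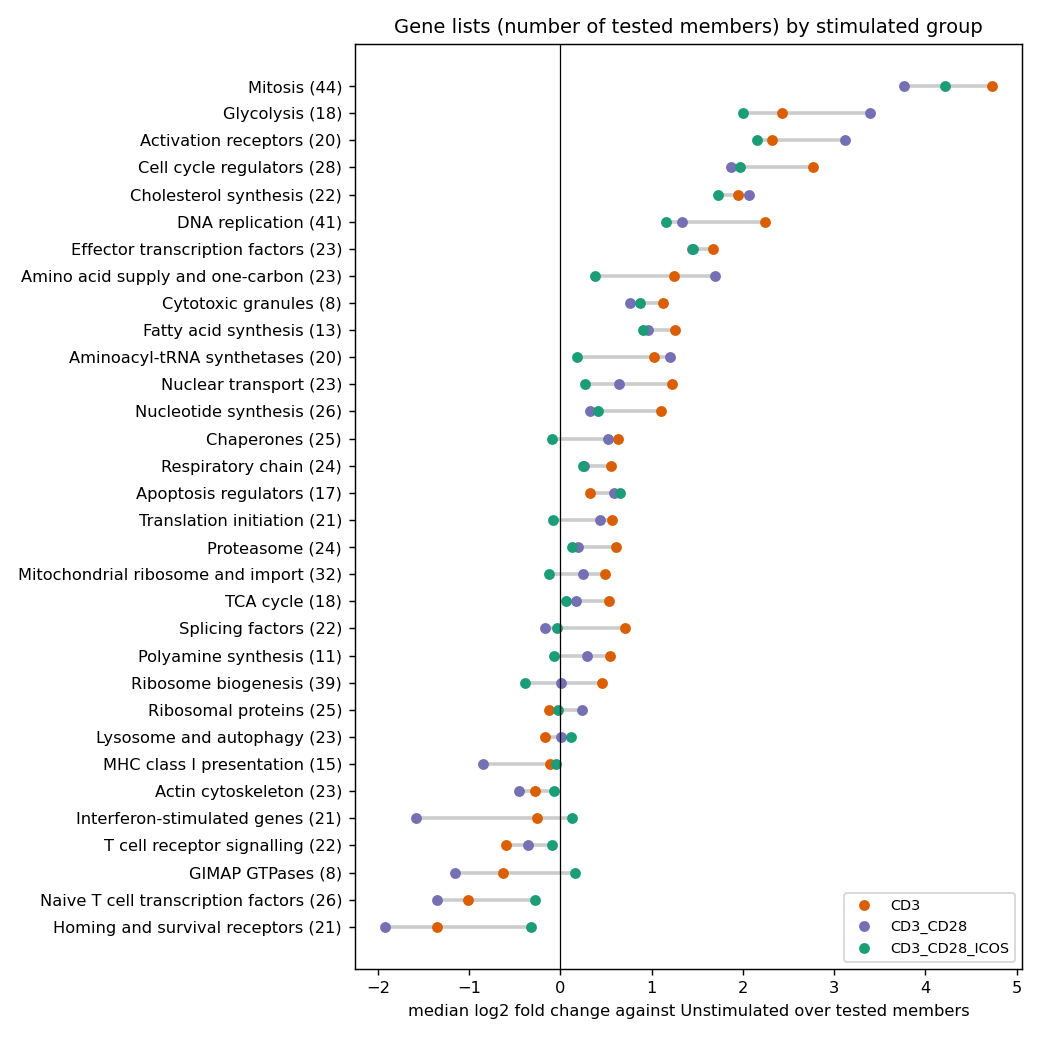
Median log2 fold change against Unstimulated over the tested members of each gene list (rows, number of tested members in brackets) in CD3, CD3_CD28 and CD3_CD28_ICOS. The 3 points lie closer for respiratory chain (0.55, 0.26 and 0.25) and cholesterol synthesis (1.95, 2.07 and 1.73). They lie further apart for glycolysis (2.43, 3.40 and 2.00) and homing and survival receptors (-1.36, -1.92 and -0.32). Close medians do not show that single genes of a list were even. The F test called 17 of 24 respiratory chain and 19 of 22 cholesterol genes.

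Sgk1, a kinase that acts below PI3K (chr10:21882184-21999903, plus strand), had the largest of the 56 falls, with 4.04, 2.85 and 3.54 CPM in CD3, 3.30, 2.86 and 5.02 CPM in CD3_CD28, and 5.28, 3.40 and 6.63 CPM in CD3_CD28_ICOS, against 61.0, 53.4 and 55.4 CPM in unstimulated libraries. The stimulated groups overlapped, and the log2 fold change was -3.53 ± 0.17 (limma, adjusted p = 6.40e-10). Its spread was 0.42, which the 1 added to each CPM makes smaller at such low values. Sgk1 stayed among the falls of similar size in 9 of the 12 fits that left out 1 library. Prkd3, a protein kinase D, fell by 1.62 ± 0.12, Dusp7, a phosphatase of ERK kinases, by 1.58 ± 0.12, and Acvr1b, an activin receptor, by 1.47 ± 0.12. Ccdc88c, which binds Dishevelled in Wnt signalling, fell by 1.49 ± 0.09 and was at 73.7 to 116 CPM in stimulated libraries, against 266 to 301 CPM in unstimulated ones. Kif1b, a kinesin motor gene, had 51.2, 51.3 and 56.1 CPM in CD3, 47.5, 68.6 and 72.3 CPM in CD3_CD28, and 83.7, 56.1 and 84.6 CPM in CD3_CD28_ICOS, against 273, 277 and 265 CPM in unstimulated libraries. It was least low in CD3_CD28_ICOS, and fell by 2.11 ± 0.13 on the log2 scale (limma, adjusted p = 1.12e-08).

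Vsir encodes VISTA, an inhibitory receptor of quiescent T cells, and was picked after its values were seen for its spread of 0.04 (chr10:60346851-60372684, plus strand). It had 207, 163 and 163 CPM in CD3, 173, 183 and 190 CPM in CD3_CD28, and 141, 217 and 192 CPM in CD3_CD28_ICOS, against 452, 490 and 446 CPM in unstimulated libraries. All 9 stimulated libraries were below all unstimulated ones, the log2 fold change was -1.36 ± 0.11 (limma, adjusted p = 9.67e-08), and the pairwise intervals stayed within 0.34. Other genes picked in this way were Saraf, which limits store-operated calcium entry, at -1.46 ± 0.08, and Tespa1, an adaptor of T cell receptor signalling, at -1.45 ± 0.12. App, the amyloid precursor protein gene, fell by 3.36 ± 0.19, and Tpt1, encoding translationally controlled tumour protein, by 1.07 ± 0.08 with a spread of 0.08. Gzma, the granzyme A gene, fell by 2.12 ± 0.39, but CD3_CD28 replicate 1 held 7.34 CPM against 1.21 and 1.80 CPM in the other CD3_CD28 libraries, and its pairwise intervals reached 1.27. Of the remaining named falls, Pkd1, encoding polycystin-1, fell by 1.75 ± 0.11, Gprasp1, which sorts G protein-coupled receptors, by 1.74 ± 0.10, and Acp5, the tartrate-resistant acid phosphatase, by 1.58 ± 0.14. The membrane protein genes Emp3 and Fam234b fell by 1.54 ± 0.10 and 1.53 ± 0.11.

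In a few falls, unstimulated replicate 3 stood above the other unstimulated libraries. Ier5, an immediate early response gene, had 36.3, 34.0 and 40.9 CPM in CD3, 41.0, 41.0 and 49.3 CPM in CD3_CD28, and 51.1, 36.3 and 45.1 CPM in CD3_CD28_ICOS, against 122, 123 and 217 CPM in unstimulated libraries. Its fall was 1.82 ± 0.16 on the log2 scale. The same held for other genes, picked after their values were seen. Unstimulated replicates 1, 2 and 3 held 28.8, 24.2 and 123 CPM of the linker histone gene H1f2 and 22.7, 20.2 and 69.5 CPM of Dnajb9, a chaperone of the endoplasmic reticulum. Without unstimulated replicate 3 the counts were 133 rises and 64 falls of similar size, of which 128 and 53 were among the 142 and 56.

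Naive-state genes fell, but not by similar amounts. Over all tested genes, 32.3% were called lower and 14.7% were lower in all 3 groups. Of 26 tested transcription factors of naive T cells, 21 were called lower and 2 higher, and 10 were lower in all 3 groups. The number of similar size was 0, which says little, since such falls were 0.570% of all tested genes. The median spread of the 26 was 1.2, beside 0.64 over all tested genes. The median log2 fold change of the list was -1.02 in CD3, -1.36 in CD3_CD28 and -0.27 in CD3_CD28_ICOS. Klf2, which keeps homing receptors expressed, had 88.3, 99.9 and 97.7 CPM in CD3, 15.7, 24.7 and 24.7 CPM in CD3_CD28, and 138, 184 and 161 CPM in CD3_CD28_ICOS, against 359, 401 and 913 CPM in unstimulated libraries. The 3 stimulated groups did not overlap with each other. Of 21 tested homing and survival receptors, 19 were called lower and 1 higher, and 10 were lower in all 3 groups. Il7r, the receptor for the survival cytokine interleukin-7, was at 58.3, 66.4 and 78.2 CPM in CD3, 228, 184 and 187 CPM in CD3_CD28, and 70.8, 133 and 124 CPM in CD3_CD28_ICOS, against 966, 667 and 535 CPM in unstimulated libraries, a fall of 2.63 ± 0.20 with a spread of 1.55. The 1 receptor called higher was Ccr7, the lymph node chemokine receptor, at 0.63 ± 0.12 (limma, adjusted p = 4.48e-04) with a spread of 0.46. Of 22 tested genes of T cell receptor signalling, 15 were called lower and 3 higher, and 7 were lower in all 3 groups.

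The order of the groups was uneven. Among the 898 rises of at least 1 log2 unit, the highest mean was in CD3 for 426 genes, in CD3_CD28 for 400 and in CD3_CD28_ICOS for 72. Among the 247 falls that were not near 0 CPM, the highest of the stimulated means, that is the smallest fall, was in CD3_CD28_ICOS for 173 genes. Over all 9826 genes CD3 was highest in 3975, CD3_CD28 in 2599 and CD3_CD28_ICOS in 3252. Among the 142 rises of similar size the highest mean was in CD3 for 65, in CD3_CD28 for 47 and in CD3_CD28_ICOS for 30. The lead of CD3 was thus also present over all tested genes and is not particular to the rises. Where groups moved in opposite directions, 360 genes were called higher in CD3_CD28_ICOS and lower in CD3_CD28, and 321 were higher in CD3 and lower in CD3_CD28. Iigp1, an interferon-induced GTPase, had log2 fold changes of 3.16 in CD3, -1.56 in CD3_CD28 and 3.54 in CD3_CD28_ICOS. Bcl2l11, the pro-apoptotic BIM, had 1.43 in CD3, -0.71 in CD3_CD28 and 1.88 in CD3_CD28_ICOS.

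The limit of 0.5 on the spread is a convention. Just inside it were Got2 (0.499) and Rps27l (0.497) among the rises and Adpgk (0.495) and Gm13340 (0.495) among the falls. Just outside were Litaf (0.503) and Nenf (0.506) among the rises and Rtn4rl1 (0.506) and Trbv1 (0.507) among the falls. Some members may share reads with near-identical copies and are uncertain for that reason. They include the pseudogenes Gm13340 and Gm29216, at 1491 to 2497 and 2556 to 4439 CPM in stimulated libraries, against 5381 to 8241 and 9717 to 13917 CPM in unstimulated ones, and the ribosomal protein gene Rps27rt.

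The 31 falls to near 0 CPM included genes typical of other cells. Pnlip, the pancreatic lipase, had 0, 0.0380 and 0 CPM in CD3 and 0 in all libraries of CD3_CD28 and CD3_CD28_ICOS, against 432, 363 and 79.7 CPM in unstimulated libraries. C1qa, a complement gene of macrophages, was at 0 in all 9 stimulated libraries, against 47.8, 20.7 and 18.6 CPM in unstimulated ones. Hbb-bs, a beta globin gene, was at 0 to 0.636 CPM in stimulated libraries, against 102, 61.6 and 49.4 CPM in unstimulated ones. Their spreads are small because the groups lie at the floor, with a median of 0.04. Of the 7 tested pancreas genes 7 were lower in all 3 groups, as were 6 of 7 myeloid and 3 of 3 erythroid genes, beside 14.7% of all tested genes.

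Summed over their lists, 10 pancreas genes were at 0.603 to 1.32 CPM in CD3 libraries, 0.761 to 1.80 CPM in CD3_CD28 libraries and 0.453 to 0.860 CPM in CD3_CD28_ICOS, against 302 to 1609 CPM in unstimulated libraries, and Cpa1, Try4, Ctrb1 and Amy2b were at 0 in every stimulated library. The 8 myeloid genes summed to 11.5 to 12.3 CPM in CD3 libraries, 15.0 to 19.1 CPM in CD3_CD28 libraries and 6.17 to 14.0 CPM in CD3_CD28_ICOS, against 157 to 390 CPM in unstimulated libraries. Most of the CD3_CD28 sum was Cd68, at 13.6, 18.2 and 16.5 CPM, against 15.7, 8.63 and 7.91 CPM in unstimulated libraries. Cd68 was called higher in CD3_CD28 (log2 fold change 0.59; limma, adjusted p = 0.023), although these libraries overlapped, and lower in the other stimulated groups. The 5 erythroid genes summed to 0.351 to 2.11 CPM in stimulated libraries, against 98.9 to 180 CPM in unstimulated ones. The 4 platelet genes summed to 0.0879 to 5.49 CPM in stimulated libraries, against 8.91 to 26.1 CPM in unstimulated ones. The 8 B cell genes differed among the stimulated groups, at 302 to 658 CPM in CD3 libraries, 7.30 to 11.4 CPM in CD3_CD28 libraries and 207 to 621 CPM in CD3_CD28_ICOS, against 122 to 218 CPM in unstimulated libraries. The 5 NK and CD8 genes summed to 22.7 to 77.1 CPM in stimulated libraries, against 35.2 to 53.3 CPM in unstimulated ones. The 4 of 5 dendritic cell genes that were listed summed to 3.48 to 13.9 CPM in stimulated libraries, against 2.99 to 5.33 CPM in unstimulated ones, with Clec9a at 0 in every stimulated library. In bulk RNA, fewer cells of a type and less RNA per cell cannot be told apart, and the part of other cells in the shared falls was not tested.

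**Figure D4:**
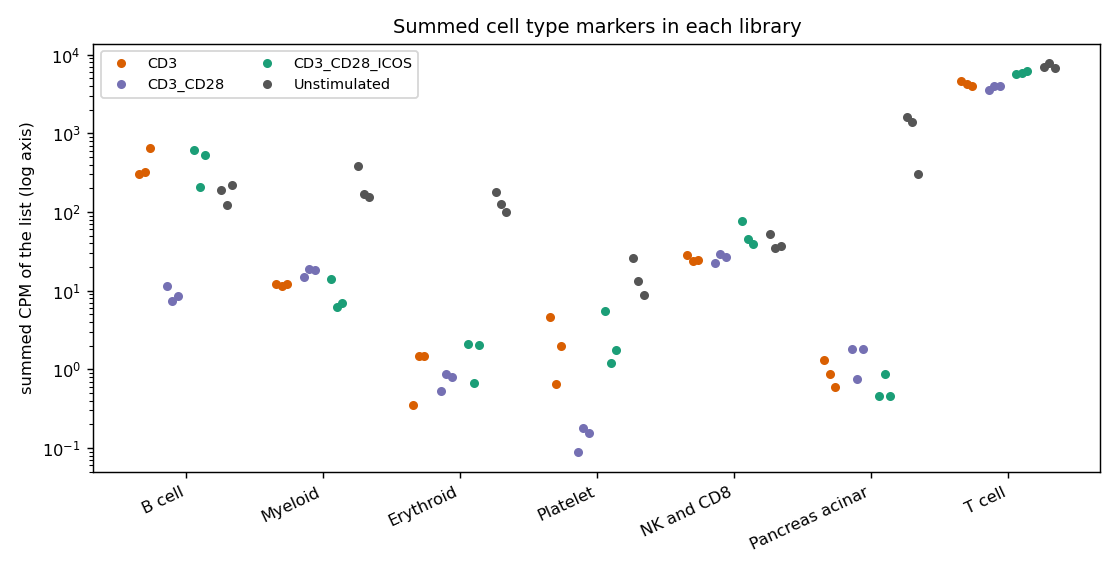
Summed CPM (log axis) of cell type marker lists in each library of CD3, CD3_CD28, CD3_CD28_ICOS and Unstimulated, left to right. Pancreas (302 to 1609 CPM), myeloid (157 to 390 CPM) and erythroid (98.9 to 180 CPM) markers stand out in the unstimulated libraries, and B cell markers are low in CD3_CD28 alone (7.30 to 11.4 CPM).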

How the data were processed

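RNA sequencing libraries of mouse CD4+ T cells (12, in 4 groups of 3 taken from the sample titles) were analysed. The authors deposited CPM values, reads per 1e6 assigned reads, with 1e-04 added to each cell (found from the values, and removed here); 0 columns were left unused. Partek version 10, DESeq2 and mm10 are named per the submitters' processing notes; the aligner, counter, annotation and use of strand were not given in the sources used here. The authors' deposited table of their own comparisons was not used. Only 76.3 to 81.3% of low values were whole multiples of 1 read, so whole reads were not recovered and no count test was run.

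The analysis in R 4.3.3 used limma 3.58.1 on log2(CPM + 1), 1 mean per group, with a variance trend and robust estimation, two-sided, on 9826 genes. The fit was also run on simulated counts in which far fewer genes changed than were called here. That run does not show how the fit or the limits perform on these data. Members and lists (40 lists, 806 genes, 755 tested) were chosen with earlier results of these data known. Named genes were the 12 largest rises and 12 largest falls of similar size (no overlap of libraries, highest group mean at or above the median of 56.6 CPM, no predicted, pseudogene, receptor segment or histone genes), up to 4 similar and 2 most uneven called members of each list, 24 fixed genes and those nearest the limit of 0.5, giving 141; others are marked in the text. RefSeq promoters (GRCm38.p6) matched 152 of the 198 genes of similar size. A planned choice of replication and mitosis promoters among the rises gave 0, and the sterol motif and the promoters printed were added after the values were seen. Alternatives are listed in the closing section. A few named genes are not reported here.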

Additional observations from a re-analysis of the deposited data

How the results depend on the processing

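The counts rest on the scaling and on the limits chosen. With quantile normalization 93 rises and 93 falls were of similar size, of which 70 and 31 were among the 142 and 56, and 1746 genes were higher and 2149 lower in all 3 groups; median-of-ratios scaling gave 137 and 70, with 109 and 41 shared. A spread of at most 0.3 left 58 and 16, a spread of at most 1 gave 420 and 128, and no minimum size gave 847 and 564. Without the CD3_CD28_ICOS group 465 and 286 were of similar size and 2190 genes were lower in the other groups. With no filter on low values 5475 genes were lower with stimulation and 2621 lower in all 3 groups. With 1 mean for all 9 stimulated libraries 2689 were higher and 1796 lower. The cause of these shifts was not tested, except that looser limits or fewer groups admit more genes by construction.

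Leaving out 1 library at a time gave 119 to 161 rises and 49 to 64 falls of similar size, 2160 to 2399 higher and 1255 to 1490 lower in all 3 groups, 3666 to 4079 higher and 2781 to 3253 lower with stimulation, and 7457 to 8110 in the F test. In all 12 such fits 74 of the 142 rises and 22 of the 56 falls were kept, and CD3_CD28_ICOS replicate 2 mattered most (119 rises, 103 of them shared). With unstimulated replicate 3 and CD3_CD28 replicate 1 both left out there were 134 and 65 (118 and 46 shared). The replicate block gave 142 and 56 of similar size, 3955 higher, 3156 lower and 7886 in the F test; 18 same-number pairs had correlations of -0.0998 to 0.408, 6 of them above 0.1, and 7 of 12 libraries correlated best with their own number, a hint from the data and not the design, so whether the numbers pair the samples is undecided. Over the 141 named genes, 3149 of 3243 alternative values kept direction and call and 94 lost the call, and 0 reversed. Depth limits genes below 10 CPM.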

Other observations

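With a filter of 1 CPM in 3 libraries 13673 genes were tested, and 48 more rises and 10 more falls of similar size appeared. Fggy, a carbohydrate kinase gene, was at 9.39, 9.15 and 8.70 CPM in CD3, 8.13, 11.9 and 12.9 CPM in CD3_CD28, and 7.41, 8.67 and 8.01 CPM in CD3_CD28_ICOS, against 0.311, 0.765 and 0.521 CPM in unstimulated libraries, and rose by 2.75 ± 0.14 on the log2 scale (limma, adjusted p = 9.10e-10). All 9 stimulated libraries lay above the unstimulated ones. Other genes here were chosen after their values were seen. No list of cilium genes was examined, so the share of such genes that rose is not given. Iqcg, a gene of motile cilia, rose by 2.34 ± 0.13 (limma, adjusted p = 1.77e-09), Wdr35, of intraflagellar transport, by 2.18 ± 0.16 (limma, adjusted p = 2.16e-08), and Spata7, of the photoreceptor cilium, by 2.12 ± 0.17 (limma, adjusted p = 5.00e-08). Abhd15, a gene of fat cell metabolism, fell by 1.88 ± 0.17 (limma, adjusted p = 2.27e-07). Among the rises at 10 CPM or more, Wdr60, a dynein gene of intraflagellar transport, rose by 2.44 ± 0.17, Cep89, of the distal appendages of centrioles, by 2.34 ± 0.13, and Kifap3, a subunit of the kinesin-2 motor, by 1.25 ± 0.14.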
